A study of Mus musculus with 4 samples.

Results

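Axon guidance genes of the ephrin, semaphorin, netrin and slit families were compared between NSCL61, a mouse neural stem cell line labelled as being like glioma-initiating cells, and NSCL61-sox11, the same kind of cell made to express Sox11, a transcription factor of immature neurons. The 60 genes were listed by name, but earlier results of these data were known when the list was chosen. Each was represented by its probe set with the highest mean over the 4 arrays, among probe sets annotated to that gene alone. Of the 60 genes, 59 had such a probe set, out of 18193 genes with one on the array. Ephb2 was not analysed here. Both lines were p53-/- on a C57BL/6 background and were labelled as derived from embryonic day 14.5 brain. The labels describe neuroepithelial cells of the telencephalon, grown as floating spheres in serum-free medium with bFGF, PDGF at 10 ng/ml and forskolin at 5 µM. Each line was measured on 2 Affymetrix M430_2 arrays, and the submitters state that the derivative had lost the ability to form tumours in vivo. NSCL61-sox11 is 1 line, and the promoter that drives its Sox11 was not stated in the labels. Whether separate cultures lie behind the 2 arrays of a line is not stated either, so p-values cover only the spread among arrays, possibly a technical one.

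Guidance molecules steer growing axons and migrating cells by attraction or repulsion, and in the developing forebrain they also act on neural progenitors and blood vessels. Eph receptors are receptor tyrosine kinases that bind ephrins on neighbouring cells and can signal in both cells. Secreted class 3 semaphorins act through neuropilins and plexins, whereas most membrane-bound semaphorins bind plexins directly. Netrins attract through Dcc and Neo1 and repel through Unc5 receptors, and slits repel through Robo receptors.

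All 6 Sox11 probe sets were higher in NSCL61-sox11, by 0.38 to 2.90 log2 units. Over all genes tested, 10% rose and 9.19% fell. Of 9 tested neural stem and progenitor markers, 4 fell (44.4%) and 0 rose. Sox2, Ccnd2, Pax6 and Vim fell, with log2 differences of -1.70, -1.47, -0.45 and -0.21 (limma adjusted p = 0.00186, 0.00433, 0.0402 and 0.0201). Nes was at 9.48 and 9.31 in NSCL61 and at 9.37 and 9.51 in NSCL61-sox11, while Fabp7 and Prom1 stayed on every array under 5.15, the level filter (the smallest mean log2 level that was tested). The summed level of the stem and progenitor list (log2) was 14.66 and 14.72 in NSCL61 and 14.35 and 14.47 in NSCL61-sox11. Its median levels were 8.76 and 8.70 against 8.54 and 8.97, with overlap between the lines. Of 11 tested markers of fibroblasts, mural and meningeal cells, 8 rose (72.7%), 6 of them at least 2-fold, and 0 fell. The median log2 difference of these tested markers was 1.10. Only Lum of the 12 listed stayed under 5.15 throughout. Their summed level (log2) was 10.76 and 11.34 on the NSCL61 arrays and 12.09 and 12.97 on the NSCL61-sox11 arrays. Of 5 tested markers of the oligodendrocyte lineage, Pdgfra rose by 1.91 (limma adjusted p = 0.000650) and 0 fell, with Olig1, Olig2 and Mog under 5.15 on every array. Summed levels were 9.90 and 10.07 against 10.60 and 10.81, but the median levels of this list were 6.73 and 6.50 against 6.46 and 6.52. Of 6 tested neuron markers, Tubb3 rose, from 5.76 and 6.25 to 7.55 and 7.45, Syt1 rose by 0.62, and Gap43 fell by a value of -0.89 (limma adjusted p = 0.00288, 0.0109 and 0.00740). Dcx, Snap25 and Elavl4 were under 5.15 on every array, and the summed levels of the neuron list were 9.47 and 9.59 against 9.57 and 9.48. Of 7 tested astrocyte markers, Slc1a3 rose by 1.19 (limma adjusted p = 0.00298) and 0 fell, Slc1a2 was under 5.15 on every array, and the summed levels were 12.12 and 12.10 against 11.93 and 12.12. Markers of microglia and blood cells and of endothelial cells included 0 called of 3 and 0 called of 5 tested, and Ptprc, Itgam, Pecam1, Tie1 and Tek were under 5.15 on every array. The shares called were 50% of the tested neuron markers, 20% for the oligodendrocyte lineage and 14.3% for astrocytes, against 19.2% of all genes. These lists are short, and none was tested as a whole. The part of these marker changes in the results below was not tested. In these bulk samples, a change in the number of cells of a type and a change of RNA per cell cannot be told apart.

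Most guidance genes that differed were higher in NSCL61-sox11. Among the 50 guidance genes that passed the level filter, 13 rose and 1 fell (limma, adjusted p under 0.05), and the receptor gene Epha4, the netrin gene Ntn1, the slit gene Slit2 and the receptor gene Ephb6 rose at least 2-fold. That is 28% called, against 19.2% of the 13084 genes tested (17.3% of probe sets). By direction, 26% of the guidance genes rose against 10% of all genes, and 2% fell against 9.19%. At least 2-fold rises made up 8% against 3.18%, and the at least 2-fold fall of Sema3e 2% against 1.3%. Because a gene can pass the level filter through the line in which it is high, the same count was made without a filter. In that fit 13 rose and 1 fell of 59 (23.7%, against 13% of all genes, 6.94% higher and 6.01% lower): Unc5c was no longer called and Robo1 was. The median log2 fold change of all 59 was 0.07, and that of all genes was -0.02. The arrays of the lines did not overlap in 36 of the 59 genes (61.0%, against 55.6% of all genes). Of these, 23 were higher and 13 lower in NSCL61-sox11, that is 39.0% and 22.0% of the 59, against 25% and 30.6% of all genes.

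The balance of directions depended on the scale. After scaling on the poly-A control probe sets, which shifted the median of all genes by -0.40, 4 guidance genes rose and 4 fell. After scaling on the hybridisation controls, which shifted it by -0.22, there were 8 that rose and 10 that fell, the latter including Epha2, Efnb2, Sema4b, Sema5a, Sema5b, Sema6a, Sema6d, Plxna2 and Unc5b. The genes Epha4, Ephb6, Ntn1 and Slit2 rose and Sema3e fell under each of these scalings. None of the 14 called genes changed sign, but none could. Both constants are negative and smaller in size than the smallest called difference, 0.46 for Sema7a. Without NSCL61 array 1, 8 rose and 1 fell, and without NSCL61 array 2, 6 rose and 1 fell; without NSCL61-sox11 array 2, 12 rose and 4 fell.

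**Figure D1:**
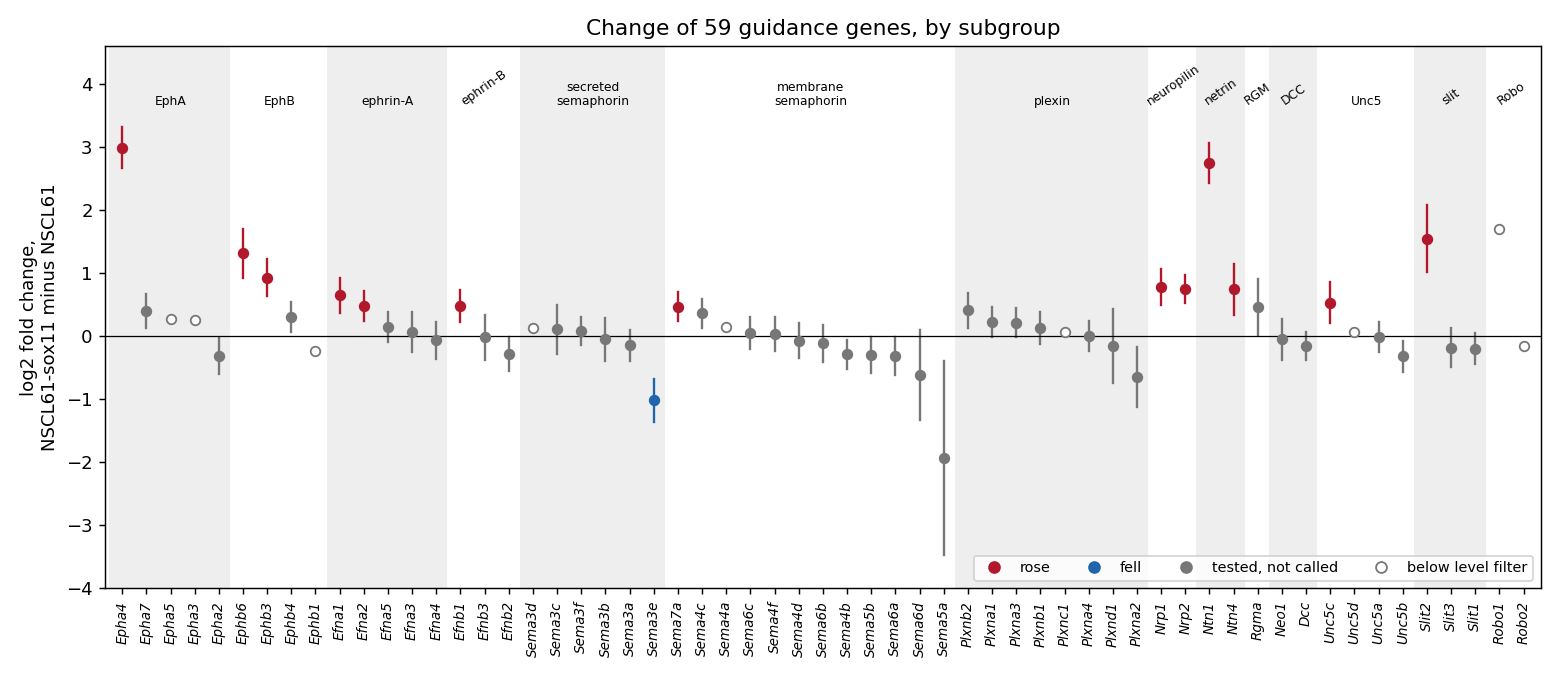
Log2 fold change (NSCL61-sox11 minus NSCL61) of the 59 guidance genes, ordered by subgroup, with 95% limma confidence intervals for the 50 genes that passed the level filter. Epha4 at 2.99 and Ntn1 at 2.74 stand highest, Sema5a at -1.93 has the widest interval, and the 7 tested plexin genes include none that was called.

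The promoters of the called genes with the largest changes were read from RefSeq (GRCm38.p6), which had an entry for 48 of the 59 genes but none for Ntn1. The 250 bases before the annotated start are shown, 5′ to 3′ on the gene's strand, for Epha4 (chr1:77515089-77515338, minus strand), Slit2 (chr5:47982905-47983154, plus strand), Ephb6 (chr6:41605261-41605510, plus strand) and Sema3e (chr5:14025026-14025275, plus strand). They are shown because the lines differ in their Sox11 level, and the letters AACAAT and ACAAAG, core motifs of SOX proteins, were searched in them on both strands. Capitals mark other motifs found on either strand, CCAAT and the TATA box TATAAA, which were added after the values were seen.
Epha4: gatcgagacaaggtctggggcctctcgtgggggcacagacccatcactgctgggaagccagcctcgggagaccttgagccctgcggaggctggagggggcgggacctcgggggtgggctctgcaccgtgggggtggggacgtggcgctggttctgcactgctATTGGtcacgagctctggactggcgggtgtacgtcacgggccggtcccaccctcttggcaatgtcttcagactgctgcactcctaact
Slit2: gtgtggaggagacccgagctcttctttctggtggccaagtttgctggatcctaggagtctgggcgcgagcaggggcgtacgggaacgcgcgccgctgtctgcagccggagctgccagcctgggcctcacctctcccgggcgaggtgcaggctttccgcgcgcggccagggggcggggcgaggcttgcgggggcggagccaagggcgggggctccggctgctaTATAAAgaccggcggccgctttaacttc
Ephb6: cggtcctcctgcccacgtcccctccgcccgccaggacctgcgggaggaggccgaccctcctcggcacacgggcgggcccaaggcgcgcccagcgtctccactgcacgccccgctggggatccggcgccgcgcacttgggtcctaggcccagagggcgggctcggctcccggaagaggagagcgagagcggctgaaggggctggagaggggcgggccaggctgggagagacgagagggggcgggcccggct
Sema3e: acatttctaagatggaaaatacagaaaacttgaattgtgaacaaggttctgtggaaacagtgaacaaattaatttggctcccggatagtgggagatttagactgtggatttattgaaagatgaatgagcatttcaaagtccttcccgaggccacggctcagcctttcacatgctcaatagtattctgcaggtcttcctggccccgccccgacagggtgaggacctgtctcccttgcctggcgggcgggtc

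Neither SOX letter string occurs in any of these 4 windows, which says only that these letters are not there. Over all 32544 promoter windows of this length, 24.0% held at least 1 of the strings, and of the 64 windows of 48 guidance genes 8 did (12.5%). This difference was not tested, and the base composition of the windows was not taken into account. The TATA box letters lie in the Slit2 window and begin at position -28 from the start; TATAAA occurred in 12.3% of all windows. The Epha4 window holds CCAAT on its other strand, beginning at position -88, as do 33.8% of all windows on either strand. The 3 promoters of genes that rose are rich in G and C (66.0% for Epha4, 69.6% for Slit2 and 76.8% for Ephb6), above the upper quartile of all windows of 61.2%. The promoter of Sema3e, which fell, has 48.0%, between the lower quartile of 45.2% and the median of 52.4%.

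Among Eph receptors, Epha4, Ephb3 and Ephb6 were higher in NSCL61-sox11 and none of those tested fell. Epha4, a receptor that binds both classes of ephrin, was at 5.35 and 5.64 in NSCL61 and at 8.40 and 8.56 in NSCL61-sox11 (log2 levels). Both NSCL61-sox11 arrays lay far above both NSCL61 arrays. Its log2 difference was 2.99 (SE 0.13, limma adjusted p = 0.000107), and each of its 4 tested probe sets rose, by 2.53 to 4.64. The probe set with the rise of 4.64 was at 3.46 and 3.12 in NSCL61, and another was at 4.07 and 4.22. Both lay under 5.15 there and passed the level filter through NSCL61-sox11, so the sizes of their rises are uncertain. The fifth, below the level filter, differed by 0.42 (limma adjusted p = 0.174 in the fit of all probe sets). Ephb6, a family member without kinase activity, was at 4.48 and 4.70 against 5.71 and 6.09, a log2 difference of 1.31 (SE 0.16, limma adjusted p = 0.00386). Its NSCL61 level lies below 5.15, so the size of this rise is uncertain. Ephb3 was at 6.84 and 6.70 against 7.57 and 7.83, a log2 difference of 0.93 (SE 0.12, limma adjusted p = 0.00503). No array of one line overlapped with the other line in either gene.

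The other Eph receptors did not pass. Epha7 depended on the probe set: the representative differed by 0.39 (limma adjusted p = 0.0605), whereas a dimmer tested probe set rose by 1.07 (limma adjusted p = 0.00322). On that dimmer probe set the arrays were at 5.62 and 5.39 in NSCL61 and at 6.65 and 6.49 in NSCL61-sox11, without overlap. With the mean of its tested probe sets Epha7 was called. Of its probe sets below the filter, 1 was higher by 1.52 and 1 by 0.44 in the fit of all probe sets (limma adjusted p = 0.000764 and 0.0471). The representative of Epha7 passed without NSCL61-sox11 array 2 (limma adjusted p = 0.0497). Epha2 was at 9.83 and 9.52 in NSCL61 and at 9.40 and 9.32 in NSCL61-sox11, and Ephb4, a receptor known from veins, differed by 0.30 (limma adjusted p = 0.123 and 0.0932). Epha3, Epha5 and Ephb1 lay below the level filter, with differences of 0.26, 0.27 and -0.23.

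Of the 8 ephrin ligand genes, all of which were tested, Efna1, Efna2 and Efnb1 rose, and none fell. Ephrin-A proteins are anchored to the membrane by a lipid, and ephrin-B proteins span it. Efna1 was at 7.30 and 7.10 in NSCL61 and at 7.93 and 7.76 in NSCL61-sox11, a log2 difference of 0.65 (SE 0.12, limma adjusted p = 0.0137). Efna2 was at 6.62 and 6.71 against 7.15 and 7.14, and changed by 0.48 (SE 0.10, limma adjusted p = 0.0207), but its other tested probe set differed by only 0.10. Efnb1 was at 7.24 and 7.07 against 7.61 and 7.67, and changed by 0.48 (SE 0.10, limma adjusted p = 0.0265). All 3 tested probe sets of Efnb1 rose, by 0.48 to 1.13. In these 3 genes both NSCL61-sox11 arrays lay above both NSCL61 arrays, but each rise was smaller than 2-fold. Efnb2, an ephrin known from arteries and neural progenitors, was at 10.09 and 10.40 in NSCL61 and at 9.97 and 9.95 in NSCL61-sox11 (limma adjusted p = 0.141), and its 4 probe sets differed by -0.33 to -0.19. Efna3, Efna4, Efna5 and Efnb3 differed by -0.07 to 0.15. In all, 6 of 14 tested genes of the ephrin family rose (42.9%) and 0 fell, against 10% and 9.19% of all genes. Without a level filter 6 rose and 0 fell of 17, against 6.94% and 6.01%.

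The calls of the ephrin ligands were less firm than those of the receptors. Efna1 was not called without NSCL61 array 2 (limma adjusted p = 0.0961), Efna2 not without NSCL61 array 1 or array 2 (0.134 and 0.0859), and Efnb1 not without NSCL61 array 1, NSCL61 array 2 or NSCL61-sox11 array 2 (0.0749, 0.164 and 0.0652). None of these 3, nor Ephb3, was called with poly-A scaling (limma adjusted p of 0.227 to 0.849), and none of the 3 with hybridisation control scaling (0.0711 to 0.289). Efna2 was also not called with the mean of its probe sets (0.0811).

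**Figure D2:**
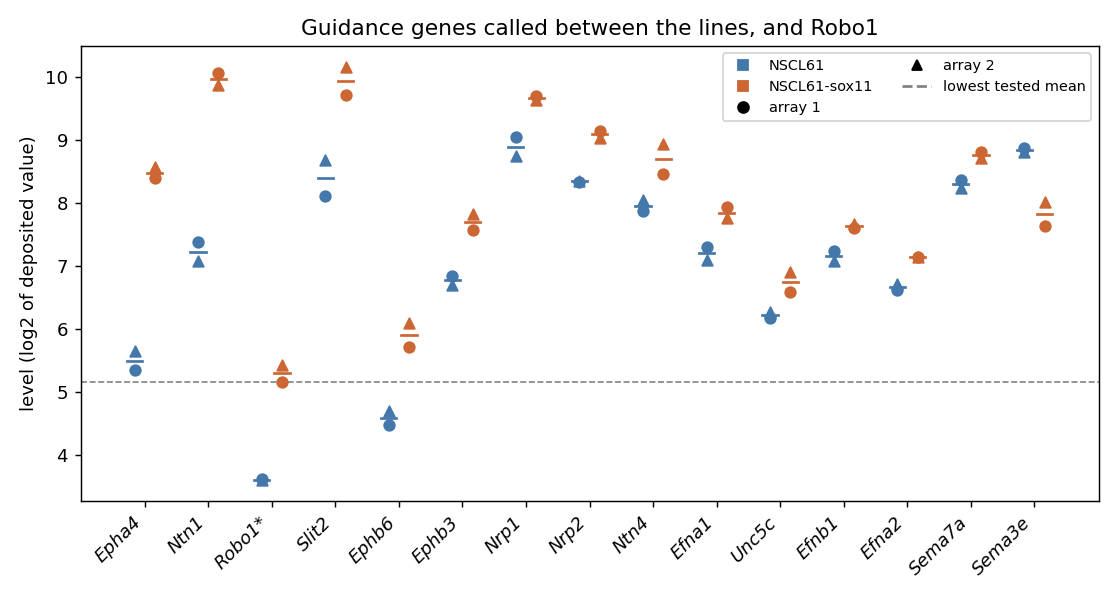
Level on each array (log2 of the deposited value) of the 14 called guidance genes and of Robo1, marked with an asterisk because it lay below the level filter, ordered by log2 fold change. Short lines are means of 2 arrays, and circles and triangles are the arrays numbered 1 and 2. In each of the 15 genes the arrays of NSCL61 and NSCL61-sox11 do not overlap, as in 55.6% of all genes. These genes were picked by their difference on the same arrays, so the lack of overlap adds no support.

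Secreted class 3 semaphorins showed a single fall, in Sema3e, which signals through Plxnd1 and is known for repelling growing vessels and axons. Its level was 8.88 and 8.81 in NSCL61 and 7.63 and 8.02 in NSCL61-sox11. Both NSCL61-sox11 arrays lay below both NSCL61 arrays. The log2 difference was -1.02 (SE 0.14, limma adjusted p = 0.00585), and each of its 4 tested probe sets fell, by values of -1.31 to -0.99. The receptor gene Plxnd1 was at 8.02 and 8.47 against 7.75 and 8.42, with overlapping arrays (limma adjusted p = 0.712). Sema3a, the prototype repellent of this class, was at 10.13 and 10.33 against 10.17 and 10.00, and its difference of -0.14 had a 95% interval of -0.39 to 0.10. Sema3b and Sema3c differed by -0.05 and 0.11 (limma adjusted p = 0.851 and 0.713).

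Probe sets of Sema3f parted. The representative, whose name ends in _x_at and which may therefore match other transcripts too, was at 9.95 and 10.03 in NSCL61 and at 9.97 and 10.16 in NSCL61-sox11, a difference of 0.08 (limma adjusted p = 0.638). The other tested probe sets both rose, by 1.89 and 0.69 (limma adjusted p = 0.00265 and 0.00905). The first of them was at 5.38 and 6.04 in NSCL61 and at 7.64 and 7.57 in NSCL61-sox11. Leaving out probe sets of this kind therefore made Sema3f a gene that rose, by 1.89. With the mean of its tested probe sets Sema3f was also called. Sema3d lay below the level filter on both of its probe sets. Its representative differed by 0.13, while the other was at 3.16 and 3.29 against 4.47 and 5.14, higher by 1.58 in the fit of all probe sets (limma adjusted p = 0.00381).

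Of the 11 tested membrane-bound semaphorins, Sema7a rose and none fell. Sema7a, which is anchored by a lipid and binds integrins and Plxnc1, was at 8.36 and 8.24 in NSCL61 and at 8.81 and 8.71 in NSCL61-sox11. The arrays did not overlap, and the log2 difference was 0.46 (SE 0.10, limma adjusted p = 0.0223). The call was lost without NSCL61 array 1 (limma adjusted p = 0.0934), NSCL61 array 2 (0.160) or NSCL61-sox11 array 1 (0.0519), and with poly-A or hybridisation control scaling (0.874 and 0.313). Plxnc1 was below the level filter on each of its 6 probe sets, with array values of 4.22 to 4.44 on the representative.

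The largest difference in the whole set that did not pass was that of Sema5a, a transmembrane semaphorin with thrombospondin repeats. Its level was 7.22 and 8.75 in NSCL61 and 5.23 and 6.89 in NSCL61-sox11. The arrays of the lines did not overlap, but the 2 arrays of a line lay 1.52 and 1.66 log2 units apart, and in each line the array numbered 1 was the lower. Its log2 fold change of -1.93 had an SE of 0.64 (limma adjusted p = 0.0903), and its other tested probe sets differed by -1.77 and -1.56. Without NSCL61-sox11 array 2 the value was -2.76 and passed (limma adjusted p = 0.00868); without NSCL61-sox11 array 1 it was -1.10 (0.183) and without NSCL61 array 2 it was -1.17 (0.347).

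A gap between arrays of the same line was also seen elsewhere. Sema6d was at 7.53 and 8.27 in NSCL61 and at 6.94 and 7.62 in NSCL61-sox11, and its arrays overlapped. Plxna2, a plexin that binds class 6 semaphorins, was at 7.96 and 8.45 against 7.36 and 7.75, without overlap. Their differences of -0.62 and -0.65 did not pass (limma adjusted p = 0.207 and 0.0720), but did without NSCL61-sox11 array 2, with values of -0.96 and -0.84 (limma adjusted p = 0.0444 and 0.0244). One dimmer probe set of Plxna2 fell, by a value of -0.46 (limma adjusted p = 0.0265). In all, 8 of the 59 genes had arrays of a line more than 0.4 apart. In Sema5a, Sema6d, Plxna2, Plxnd1, Slit2, Ntn4 and Rgma the array numbered 2 was higher in both lines, and in Sema3c it was lower in both. The summed levels of the fibroblast, mural and meningeal, the oligodendrocyte lineage and the stem and progenitor markers, given above, were also higher on the array numbered 2 in both lines, and their part in these gaps was not tested.

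**Figure D3:**
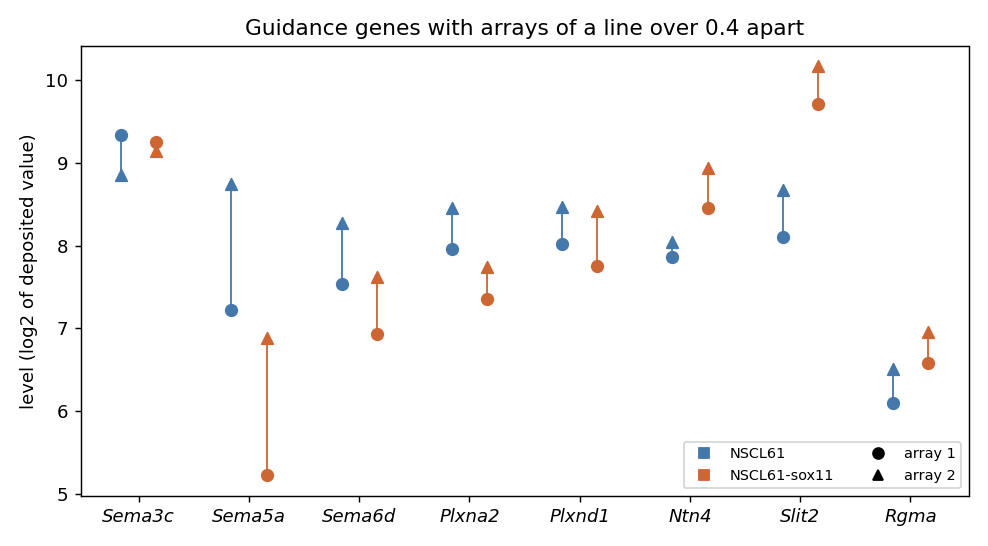
Level on each array (log2 of the deposited value) of the 8 guidance genes in which the 2 arrays of a line lay more than 0.4 apart. Circles and triangles are the arrays numbered 1 and 2, joined within a line; the gaps of Sema5a, 1.52 in NSCL61 and 1.66 in NSCL61-sox11, are the widest.

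Sema6a was another gene whose probe sets parted. On the representative it was at 6.51 and 6.66 in NSCL61 and at 6.14 and 6.38 in NSCL61-sox11, a difference of -0.32 (limma adjusted p = 0.134). Its other tested probe sets fell, by values of -1.44 and -0.78 (limma adjusted p = 0.000913 and 0.0159). The first of these was at 6.15 and 6.10 against 4.80 and 4.57. With the mean of its probe sets Sema6a was called, at -0.85 (limma adjusted p = 0.00462). The remaining tested genes, Sema4b, Sema4c, Sema4d, Sema4f, Sema5b, Sema6b and Sema6c, differed by -0.30 to 0.36 and did not pass. Sema4c, a ligand of Plxnb2, came nearest with 6.99 and 7.07 against 7.35 and 7.43 (limma adjusted p = 0.0520). It passed among the brightest 40%, without an intensity trend, and in the fit on 1 mean per gene. Sema4c has only 1 probe set, so its difference was the same in these fits and only its adjusted p moved. Sema4a was below the level filter.

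Both neuropilin genes rose, and no plexin did. Neuropilins are the ligand-binding co-receptors of class 3 semaphorins and also bind vascular endothelial growth factor. Nrp1 was at 9.04 and 8.74 in NSCL61 and at 9.70 and 9.63 in NSCL61-sox11, a log2 difference of 0.77 (SE 0.12, limma adjusted p = 0.00820). Nrp2 was at 8.33 and 8.35 against 9.15 and 9.03, a log2 difference of 0.75 (SE 0.09, limma adjusted p = 0.00364). In both genes the NSCL61-sox11 arrays were the higher, without overlap. All 3 tested probe sets of Nrp2 rose, by 0.73 to 0.98, and 3 of 4 of Nrp1, by 0.77 to 0.93. Nrp1 was not called without NSCL61 array 2 (limma adjusted p = 0.0522), and neither was called with poly-A scaling (0.318 for Nrp1 and 0.354 for Nrp2). Of the plexins, Plxnb2 was at 10.13 and 10.42 against 10.61 and 10.76 (limma adjusted p = 0.0579), and passed without NSCL61-sox11 array 1 (0.0353) or with quantile normalization (0.0482). On their representative probe sets, Plxna1, Plxna3, Plxna4 and Plxnb1 differed by 0.00 to 0.22, with 95% intervals that lay within -0.23 and 0.46. The other tested probe set of Plxna4 was at 5.17 and 5.01 against 5.41 and 5.75, a difference of 0.49 (limma adjusted p = 0.0645). Those of Plxna1 and Plxna3 differed by 0.05 and 0.09. Over the family, 4 of 25 tested semaphorin ligand and receptor genes were called (16.0%), near the 19.2% of all genes.

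Both netrin genes of the guidance list, Ntn1 and Ntn4, rose, while the attractive receptors did not pass. Of the netrin genes outside that list, Ntn5, Ntng1 and Ntng2 were tested and did not pass. Their differences were 0.10, 0.03 and -0.13 (limma adjusted p = 0.643, 0.891 and 0.434). Ntn3, also outside the list, lay below the level filter. Ntn1, the founding secreted netrin, was at 7.37 and 7.08 in NSCL61 and at 10.06 and 9.87 in NSCL61-sox11. Each NSCL61-sox11 array lay more than 2 log2 units above each NSCL61 array, and the log2 difference was 2.74 (SE 0.13, limma adjusted p = 0.000126). Its dimmer probe set rose by 0.97 (limma adjusted p = 0.0152), and the mean of both by 1.86, so the size depends on the probe set. Ntn4, a netrin that also binds laminins of basement membranes, was at 7.87 and 8.05 against 8.46 and 8.94, a log2 difference of 0.74 (SE 0.17, limma adjusted p = 0.0301). Its second tested probe set differed by 0.23 and did not pass. Ntn4 was not called without NSCL61 array 1 (limma adjusted p = 0.164) or NSCL61 array 2 (0.0973), with the mean of its probe sets (0.0672) or with poly-A scaling (0.370).

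The receptor gene Dcc was at 7.15 and 7.19 in NSCL61 and at 7.02 and 6.99 in NSCL61-sox11, a difference of -0.16 with a 95% interval of -0.39 to 0.06. Its other 2 probe sets reached at most 3.17 on any array. Neo1 was at 9.44 and 9.69 against 9.36 and 9.66, a difference of -0.05 with an interval of -0.38 to 0.28. Of the repulsive receptors, Unc5c was at 6.18 and 6.26 against 6.58 and 6.91, and rose by 0.53 (SE 0.13, limma adjusted p = 0.0435). This call was lost without NSCL61 array 1 (0.198), NSCL61 array 2 (0.140) or NSCL61-sox11 array 2 (0.127), without a level filter (0.0536), and with quantile normalization (0.0519), poly-A scaling (0.746) or hybridisation control scaling (0.211). Unc5b was at 9.53 and 9.77 in NSCL61 and at 9.31 and 9.34 in NSCL61-sox11 (limma adjusted p = 0.0824), Unc5a differed by -0.01, and Unc5d was below the level filter. Rgma, a ligand of Neo1, was at 6.10 and 6.51 against 6.59 and 6.95 (limma adjusted p = 0.138). Among the 8 tested genes of this group in the guidance list 3 rose and 0 fell, against 10% and 9.19% of all genes. Without a level filter 2 rose and 0 fell of 9, against 6.94% and 6.01%.

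Slit2 rose, and Slit1 and Slit3 did not pass. Slit2 was at 8.11 and 8.67 in NSCL61 and at 9.71 and 10.16 in NSCL61-sox11. The arrays did not overlap although the arrays of a line lay 0.57 and 0.46 apart, and the log2 difference was 1.55 (SE 0.22, limma adjusted p = 0.00650). Its other tested probe set rose by 0.99 (limma adjusted p = 0.0163), and the probe set below the filter was higher by 1.32 in the fit of all probe sets (limma adjusted p = 0.00609). Slit1 and Slit3 differed by -0.20 and -0.18 (limma adjusted p = 0.252 and 0.393). The receptor gene Robo1 was at 3.61 and 3.60 in NSCL61 and at 5.16 and 5.43 in NSCL61-sox11. Its mean lay below the level filter, and in the fit of all probe sets it was higher by 1.69 (limma adjusted p = 0.000322). Its NSCL61 values are among the dim ones of the array, so this size is uncertain, and its other 2 probe sets differed by -0.14 and -0.05. Robo2 was at 2.56 to 2.95 on the 4 arrays, a difference of -0.16.

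**Figure D4:**
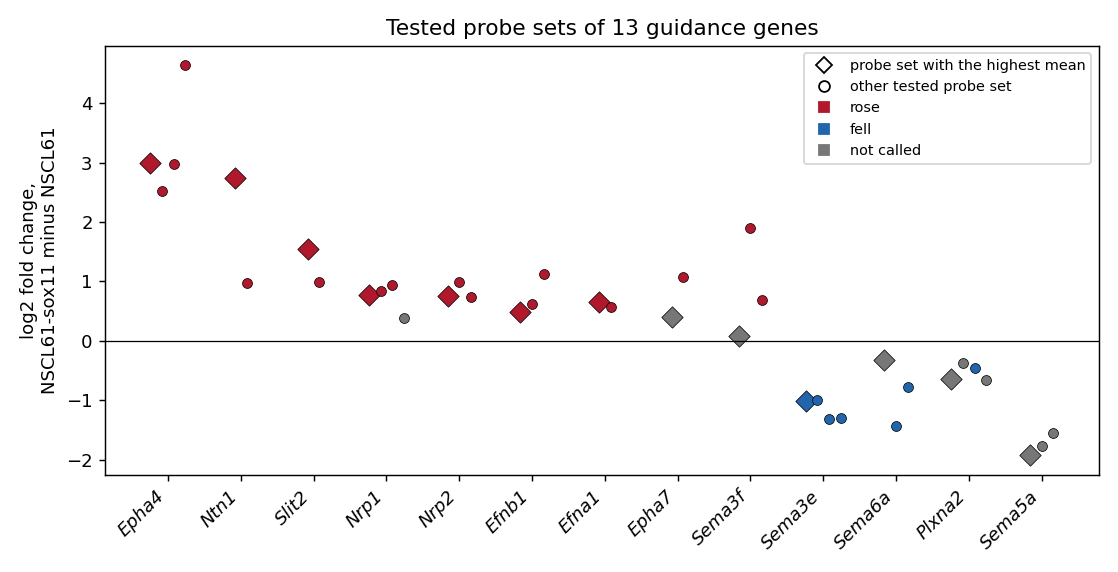
Log2 fold change (NSCL61-sox11 minus NSCL61) of every tested probe set of 13 guidance genes, chosen after their values were seen. Diamonds are the representative probe sets and colours give the limma call; the probe sets of Epha4 and Sema3e were all called, whereas those of Epha7, Sema3f and Sema6a include the representative among the uncalled ones.

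Agreement between probe sets could be checked in 29 guidance genes with more than 1 tested probe set. In 7 all tested probe sets were called in 1 direction (Epha4, Efna1, Efnb1, Sema3e, Nrp2, Ntn1 and Slit2), in 14 none was called, and in 8 some were and some were not. For Epha4 and Slit2 these include probe sets under 5.15 in NSCL61, which passed the level filter through NSCL61-sox11. In 0 of the 29 were probe sets called in both directions. The same counts were not made over all genes with several tested probe sets. They therefore describe these genes and do not set them apart from others. In Epha7, Sema3f, Sema6a and Plxna2 the representative was not called but another probe set was. Ephb3, Ephb6 and Unc5c were called on their only tested probe set.

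Ligands and receptors of the families were called at like shares: 8 of 30 tested ligand genes (26.7%, 7 up) and 6 of 20 tested receptor genes (30%, all up). Of all genes 19.2% were called, 10% higher and 9.19% lower. Without a level filter 8 of 32 ligand genes (7 up) and 6 of 27 receptor genes (all up) were called, against 13% of all genes, 6.94% higher and 6.01% lower. The difference between ligands and receptors was not tested. Of the 36 tested genes that did not pass, 25 differed by less than 0.3 log2 units, and the 95% intervals of 33 lay within a 2-fold change in either direction.

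Other genes of these pathways moved in both directions. Of 16 tested family genes outside the 59, Flrt1, which encodes a membrane protein that binds Unc5 receptors, rose from 6.70 ± 0.13 to 7.66 ± 0.03, and Plxnb3, a receptor for Sema5a, fell from 8.45 ± 0.04 to 7.58 ± 0.16 (SD, n = 2 each, limma adjusted p = 0.00263 and 0.00439). The remaining 14 did not pass, which makes 12.5% called, against 19.2% of all genes. Of 29 tested genes of co-receptors and processing, 2 rose and 4 fell (20.7%, near the 19.2% of all genes). Vcan, a matrix proteoglycan, and Ptprf, a receptor phosphatase, fell by values of -1.19 and -0.99, and Ptprd, another receptor phosphatase, and Sdc4, a heparan sulfate proteoglycan, rose by 0.88 and 0.72 (limma adjusted p of 0.00108 to 0.0164).

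Among 73 tested genes of intracellular effectors, 9 rose and 11 fell (27.4% called, against 19.2% of all genes, 10% higher and 9.19% lower), with a median of -0.02 over the tested genes, the same as for all genes. Pak3, a kinase activated by Rac and Cdc42, rose from 6.14 ± 0.04 to 9.18 ± 0.17 (SD, n = 2 each, limma adjusted p = 9.94e-05). Ablim1, an actin-binding protein whose relatives act downstream of netrin, rose from 5.84 ± 0.11 to 8.71 ± 0.27 (SD, n = 2 each, limma adjusted p = 0.000156). Mras, a small GTPase of the Ras family, rose by 1.17 and Chn1, a Rac inhibitor that acts downstream of Epha4, fell by a value of -1.13 (limma adjusted p = 0.00224 and 0.0147). In Pak3 and Ablim1 the arrays of the lines lay more than 2 log2 units apart.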

How the data were processed

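The authors' deposited values, 1 for each of 45101 probe sets on 4 Affymetrix arrays, were read as log2 expression from their range (2.13 to 14.43 without controls). The log base is inferred, and the summarisation and normalization steps are not given in the sources used here. After removal of 64 control probe sets, GEO's platform annotation named 34945 with 1 symbol, 932 with several and 9160 with none here.

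NSCL61-sox11 and NSCL61 were contrasted in limma 3.58.1 (R 4.3.3), by a two-sided moderated test with a trend on mean level. The test covered the brightest 60% by mean (27022 probe sets, mean 5.15 or more), with Benjamini-Hochberg adjustment across them and a threshold of 0.05. Dimmer genes have p-values only from the unfiltered fit. There were 2 residual degrees of freedom (6.36 moderated), and an exact permutation test on these arrays cannot go below 0.333. SE of fold changes are moderated; SD of levels are over 2 arrays.

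Members and lists were chosen with earlier results of these data known, and no list was tested as a whole. All 59 genes are named, and up to 4 called genes with the largest change of each other list; array values are given for members called with at least a 2-fold change and the brightest uncalled ones of each family, and for further members chosen after their values were seen. Promoters are of the called members with the 3 largest rises and of the 1 called fall that had an entry. Alternatives were scaling, filters, probe set rules, the intensity trend, a replicate block and leaving out each array. Scripts were tested on simulated data. Figures were drawn with matplotlib 3.10.9.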

Additional observations from a re-analysis of the deposited data

How the results depend on the processing

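Of the 14 alternatives, poly-A control scaling, the replicate block and leaving out either NSCL61 array moved the count of 14 called guidance genes by over 1.5 times. With poly-A control scaling 8 were called, with a median of -0.33 over the 59 genes, and 2553 probe sets were called over the whole array in place of 4678. With hybridisation control scaling the median was -0.15. Each scaling adds 1 constant to all differences. Leaving out 1 array gave 7 to 16 called guidance genes, medians of 0.067 to 0.14, and 1639 to 4947 called probe sets, with the lowest counts when an NSCL61 array was left out; those fits have fewer samples. No called guidance gene changed sign under any alternative, but under most of them none could. The control scalings and median centring add a constant smaller in size than the smallest called difference. Level filters, the intensity trend and the replicate block leave the differences as they are. The arrays of the lines did not overlap in any called gene, so leaving out 1 array could not turn its sign. Sign changes occurred 48 times, in 21 genes that were called neither before nor after, 13 of them with poly-A and 9 with hybridisation control scaling.

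The array numbers are shared between the lines, but nothing states that they mark a shared culture or day. With the array number as a replicate block, 27 guidance genes and 9227 probe sets were called; all 14 stayed called and 13 were added, among them Sema5a, Sema6d, Plxna2 and Rgma. This fit has 1 residual degree of freedom. The differences between array 2 and array 1 correlated between the lines with r = 0.41 over the 27022 tested probe sets and r = 0.75 over the 59 guidance genes, a description only. Since 2 numbers cannot show a pairing, these calls were not used in the report. The number of arrays and, for genes below 5.15 in 1 line, the signal over background limit the sizes given.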
